A study of Homo sapiens with 3 samples.

Results

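The genes for the chains of collagen and for the enzymes that modify, fold, process and cross-link them were followed in the established human small cell lung cancer (SCLC) line H128 after knockdown of ESRRG, the gene for the nuclear receptor ERRγ. Members were taken by gene symbol. The 40 collagen chain genes were those named COL, a type number, A and a chain number. The 21 enzyme and helper genes were the prolyl 4-hydroxylase subunits, the prolyl 3-hydroxylase family with CRTAP, the lysyl hydroxylases, the collagen galactosyltransferases, the lysyl oxidases, the chaperone SERPINH1, the C-proteinase BMP1 and its enhancer PCOLCE. Together these were 61 of the 17448 genes in the deposited table. The cells were grown with 10% foetal bovine serum and were transfected for 48 h with the control siRNA (siCont) or with an siRNA against ESRRG (siERRG2 or siERRG3), and total RNA was sequenced in 1 library for each of the 3 conditions. The comparison asks which transcripts differ when ERRγ is reduced. With 1 library per condition no difference below has a replicate check, so no p-value is given.

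Collagens are built from chains that carry long runs of glycine-X-Y repeats and wind around each other in the endoplasmic reticulum. Before winding, prolines and lysines are hydroxylated and some hydroxylysines receive sugars, and the hydroxyproline made by prolyl 4-hydroxylases keeps the helix stable at body temperature. SERPINH1 (HSP47) guards the folded helix, C-proteinases such as BMP1 trim the secreted fibrillar procollagens, and lysyl oxidases start the covalent cross-links that stiffen the matrix. In most solid tumours fibroblasts are the main source of fibrillar collagen, while tumour cells add chains of their own. In bulk RNA, fewer cells of a type and less RNA per cell cannot be told apart.

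Counts are the authors' estimated reads per gene and library, rounded to whole numbers, with totals between 19861937 and 20016780. ESRRG itself had 806 counts with siCont, 211 with siERRG2 and 230 with siERRG3, so the targeted gene was low in both libraries labelled as knockdown. A log2 fold change is the difference of log2 CPM after TMM scaling (prior count 2), and a gene is called lower or higher here when it differs by at least 1.2-fold, the threshold of the study. The interval given with a gene is that of its scaled count ratio at 95%, computed as exact binomial (Clopper-Pearson), and covers counting error only. Both siRNA libraries are compared with the same siCont library, so their ratios to it are not independent of each other. Neuroendocrine markers were high in every library: NEUROD1, INSM1, CHGA, CHGB, SYP, NCAM1 and UCHL1, the 7 analysed here, had between 2751 and 22326 counts. Of them 2 were lower (INSM1 and CHGB) and 0 higher than siCont in siERRG2, where 19.2% of all genes compared were lower and 16.4% higher. In siERRG3, 3 were lower (NEUROD1, CHGA and SYP) and 1 higher, where 25.1% of all genes compared were lower and 23.2% higher. The summed level of the 7 markers was 1354, 1216 and 1511 FPKM in siCont, siERRG2 and siERRG3. UCHL1, the higher one in siERRG3, with 16031, 15340 and 22326 counts, gave the most to it. The 8 fibroblast markers summed to 6.73, 10.04 and 4.36 FPKM in the same order, and none of them was at 0 in every library. Of these, FAP had 225, 265 and 129 counts and LUM had 83, 183 and 58, while PDGFRB, THY1, ACTA2 and DCN had at most 9 counts in any library. The remaining markers were PDGFRA, with 6, 16 and 20 counts, and FBN1, with 13, 6 and 5. The 4 endothelial markers summed to 17.87, 19.8 and 7.25 FPKM, nearly all from CDH5 with 1456, 1623 and 585 counts, while VWF and KDR had at most 1. The 3 immune markers summed to 2.80, 2.83 and 4.17 FPKM. The part of these transcripts in the collagen values was not tested.

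Collagen RNA of H128 cells came mainly from 3 genes. On the FPKM scale, which corrects for transcript length, the 40 chains gave a sum of 83.5 with siCont, 86.5 with siERRG2 and 69.2 with siERRG3. COL16A1 and COL19A1 encode fibril-associated collagens (FACIT), which sit on the surface of fibrils or near basement membranes, and COL1A2 encodes the alpha 2 chain of type I collagen. COL16A1 supplied 40.6% of the summed chain FPKM in siCont, 38.5% in siERRG2 and 34.4% in siERRG3. COL1A2 supplied 22.5%, 30.8% and 33.0%, and COL19A1 supplied 13.6%, 14.7% and 8.33%. The FACIT class as a whole thus held 58.4% of the chain FPKM in siCont and 50.7% in siERRG3, while the share of the fibrillar class was 31.9% in siCont, 37.9% in siERRG2 and 42.8% in siERRG3. COL16A1, the highest chain, ranked 2530 of all genes by FPKM in siCont. The enzymes stood higher per length, with a median of 6.62 FPKM in siCont against 0.095 for the chains.

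**Figure D1:**
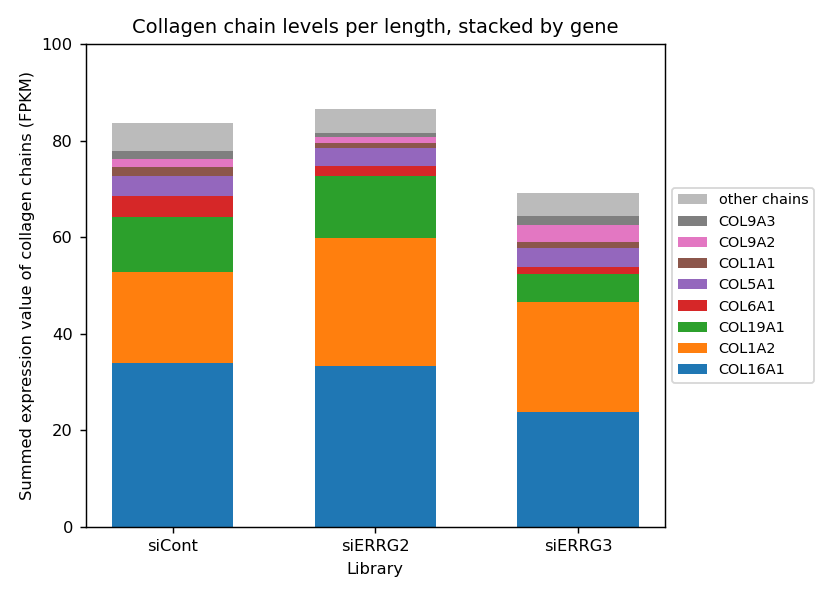
Stacked bars give the summed FPKM of the 40 collagen chains in each library, with the 8 genes of the legend shown separately and the rest in light grey. The total was 83.5 with siCont, 86.5 with siERRG2 and 69.2 with siERRG3, and the COL16A1 and COL19A1 parts were lowest in siERRG3.

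Many chains were below the reach of these libraries. Of the 40 chains, 23 had at least 10 counts in at least 1 library and were compared, and 11 had a mean of at least 50 counts over the 3 libraries. Of the 23, 18 had at least 10 counts in every library and 2 passed through a single library. The other 17 chains had at most 8 counts in any library, and 8 of them had at most 3. Among these 17 were COL2A1, the fibrillar chain of cartilage, with 4, 0 and 4 counts, the short-chain collagens COL8A1, COL8A2 and COL10A1, and the transmembrane collagens COL13A1 and COL17A1. The rest were the FACIT chains COL9A1, COL12A1, COL14A1, COL20A1, COL21A1 and COL22A1, the fibrillar COL5A3 and COL24A1, the beaded COL26A1 and COL28A1, and the multiplexin COL15A1. They were too low to be compared under the filter and are given no call. The enzymes were better covered: 19 of the 21 were compared, all with at least 10 counts in every library, and only P3H2 and P4HA3 were left out, with at most 3 counts.

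More of the compared chains were lower than higher in each knockdown library. In siERRG2, 11 of the 23 chains (47.8%) lay at least 1.2-fold below siCont and 4 (17.4%) lay above it by as much, where 19.2% of all 14031 genes compared were lower and 16.4% were higher. In siERRG3, again 11 of the 23 were lower and 4 higher, against 25.1% lower and 23.2% higher among all genes. The share of lower chains was thus above the background in both libraries, and the share of higher chains was close to it in siERRG2. Among the 11 chains with a mean of at least 50 counts, 7 were lower and 1 was higher in siERRG2 (15.5% and 12.8% of 11369 genes at that level), and 6 were lower and 2 higher in siERRG3 (24.3% and 19.4%). The median log2 fold change of the 23 chains was -0.24 in siERRG2 and -0.20 in siERRG3, beside -0.00038 and -0.0033 over all genes. With intervals that also excluded 1, 8 chains were lower and 3 higher in siERRG2 (12.8% and 10.2% of all genes), and 6 were lower and 2 higher in siERRG3 (19.9% and 17.1%). The chains counted as higher in siERRG2 include COL4A6, which passed the filter through that library alone. All these counts over few genes carry no test.

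**Figure D2:**
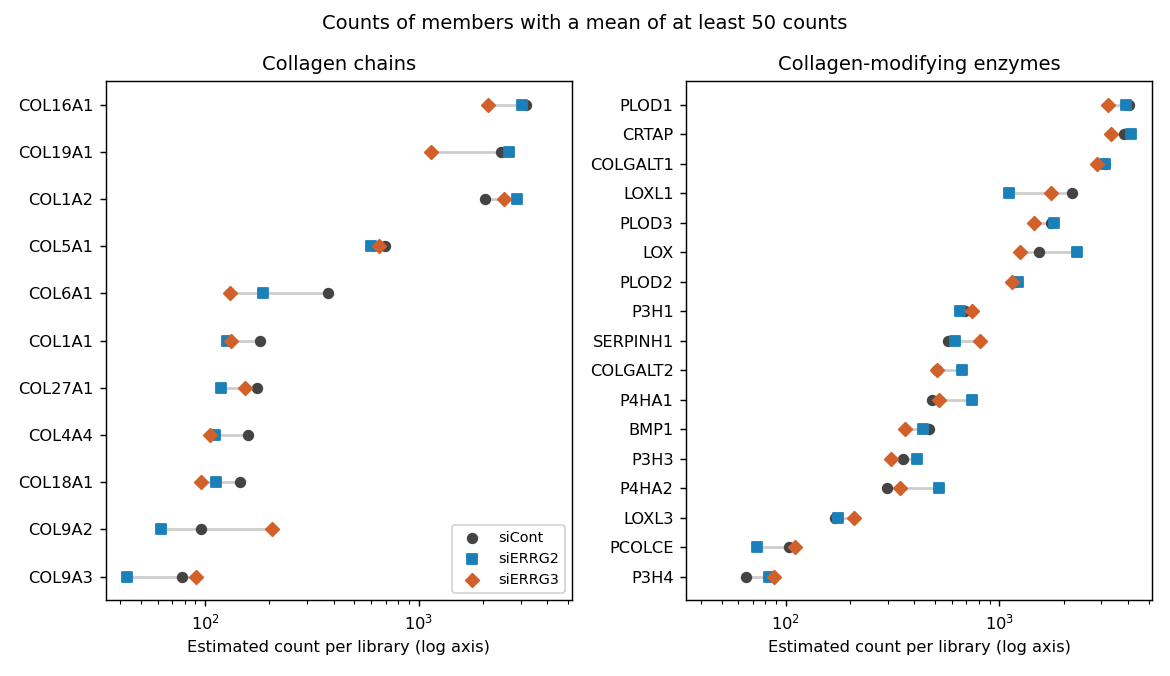
Each row is a member with a mean of at least 50 counts, and its points are its estimated counts in siCont (circle), siERRG2 (square) and siERRG3 (diamond) on a log axis. COL6A1 was highest in siCont, while COL9A2 was lowest in siERRG2 and highest in siERRG3.

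The partners of type I collagen went in opposite directions. Type I collagen, the main fibril-forming collagen of connective tissue, normally holds more alpha 1 than alpha 2 chains. COL1A1, gene 1277 at 50184096 to 50201649 of chromosome 17 in the GRCh38 coordinates of the table, had 181 counts with siCont, 127 with siERRG2 and 132 with siERRG3. COL1A2, gene 1278 at 94394364 to 94452251 of chromosome 7, had 2043, 2896 and 2505. COL1A1 was therefore highest in siCont and COL1A2 lowest there. The log2 fold changes of COL1A1 were -0.52 in siERRG2 and -0.47 in siERRG3, with intervals of 0.548 to 0.875 and 0.569 to 0.902. Those of COL1A2 were 0.49 and 0.27, with intervals of 1.32 to 1.48 and 1.14 to 1.28. Per length, COL1A2 exceeded COL1A1 10.7-fold in siCont, 22.5-fold in siERRG2 and 18.9-fold in siERRG3.

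Among the other fibrillar chains, those of type V, which sets fibril diameter, and type XXVII were lower than siCont or within 1.2-fold of it. COL5A1 had 695 counts with siCont, 596 with siERRG2 and 652 with siERRG3, within 1.2-fold of siCont throughout, with intervals of 0.759 to 0.947 and 0.828 to 1.03. COL5A2, its partner, had 39, 23 and 25 counts, and both of its intervals included 1. COL27A1, a fibrillar collagen of developing cartilage, had 174, 119 and 154 counts. It was lower in siERRG2, with a log2 fold change of -0.56 (interval 0.531 to 0.859), and in siERRG3 its interval of 0.696 to 1.09 included 1. COL3A1, abundant in vessel walls and reticular fibres, had 17, 19 and 22 counts and did not differ from siCont beyond counting error. COL11A2 of type XI had 10, 11 and 6 counts, and COL7A1, the anchoring fibril chain of skin, had 21, 19 and 14. These low chains fall outside the rule of a mean of 50 counts and are named to complete their types.

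Among the FACIT chains, COL16A1 and COL19A1 were lower in siERRG3 than in siERRG2. COL16A1, gene 1307 at 31650259 to 31704789 of chromosome 1, had 3180 counts with siCont, 3057 with siERRG2 and 2118 with siERRG3. COL19A1, gene 1310 at 69866443 to 70215063 of chromosome 6, had 2422, 2661 and 1137. Both stood near siCont in siERRG2 and low in siERRG3. The log2 fold change of COL16A1 was -0.07 in siERRG2 and -0.61 in siERRG3 (interval 0.62 to 0.692), and that of COL19A1 was 0.12 and -1.11 (interval 0.43 to 0.496). Set directly against siERRG2, siERRG3 was lower by a log2 fold change of -0.54 for COL16A1 and -1.23 for COL19A1, with intervals of 0.652 to 0.729 and 0.396 to 0.456.

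Type IX collagen, which coats the type II fibrils of cartilage, showed the opposite order. COL9A2, gene 1298 at 40300328 to 40317816 of chromosome 1, had 96 counts with siCont, 62 with siERRG2 and 205 with siERRG3, and COL9A3 had 78, 43 and 91. The 2 chains were lowest in siERRG2 and highest in siERRG3. COL9A2 had log2 fold changes of -0.63 (interval 0.456 to 0.888) and 1.05 (1.64 to 2.7), so its ratio to siCont was on opposite sides of 1. COL9A3 had -0.85 in siERRG2 (0.367 to 0.801), while in siERRG3 its interval of 0.838 to 1.57 included 1. From siERRG2 to siERRG3 both were higher, with intervals of 2.46 to 4.44 for COL9A2 and 1.45 to 3.1 for COL9A3. Per length the partners were at 1.68 and 1.65 FPKM in siCont, 1.07 and 0.91 in siERRG2 and 3.54 and 1.85 in siERRG3. COL9A1, the remaining chain of the type, had 6, 2 and 0 counts, too few to compare, and the RefSeq extent of COL9A3 overlaps that of TCFL5, which had 874, 771 and 794 counts.

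**Figure D3:**
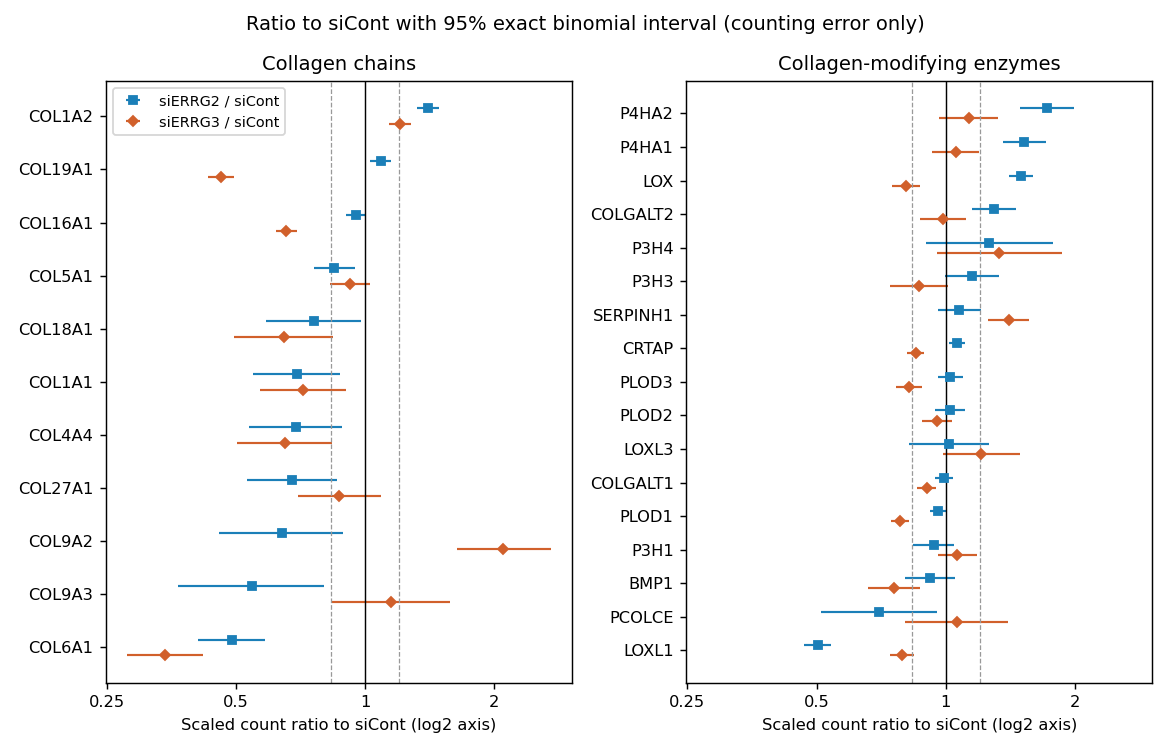
Points are scaled count ratios to siCont on a log2 axis, in siERRG2 (squares) and siERRG3 (diamonds), with 95% exact binomial intervals that cover counting error only; dashed lines mark 1.2-fold. COL6A1 and LOXL1 lay below the lower line in both, and P4HA1 and P4HA2 above the upper line in siERRG2.

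COL6A1 had the largest decrease of the 28 members with a mean of at least 50 counts in the comparison of siERRG3 with siCont. In siERRG2 its log2 fold change of -1.02 was also the lowest, but that of LOXL1 was close at -0.99. The LOXL1 interval of 0.467 to 0.541 lay inside that of COL6A1, so their order in siERRG2 was not resolved. By FPKM the drop from siCont to siERRG2 was larger for LOXL1 (53.35 to 25.72) than for COL6A1 (4.44 to 2.19). Type VI collagen forms beaded microfilaments around cells and is assembled from alpha 1, alpha 2 and alpha 3 chains. COL6A1, gene 1291 at 45981749 to 46005049 of chromosome 21, had 376 counts with siCont, 186 with siERRG2 and 131 with siERRG3, so each knockdown library was well under siCont. The intervals of its ratio were 0.408 to 0.585 and 0.279 to 0.419. Between the knockdown libraries it was lower in siERRG3, with an interval of 0.556 to 0.881. Its neighbour COL6A2, at 46098071 to 46132849 of chromosome 21, had 30, 39 and 32 counts, and COL6A3 had 8, 9 and 10. The intervals of both partners included 1 in both comparisons, and for COL6A2, at 0.778 to 2.14 in siERRG2 and 0.617 to 1.79 in siERRG3, they lay above those of COL6A1. Per length, COL6A1 exceeded COL6A2 10.1-fold in siCont, 3.84-fold in siERRG2 and 3.33-fold in siERRG3. COL6A6, another chain of the type, had 20, 19 and 19 counts.

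**Figure D4:**
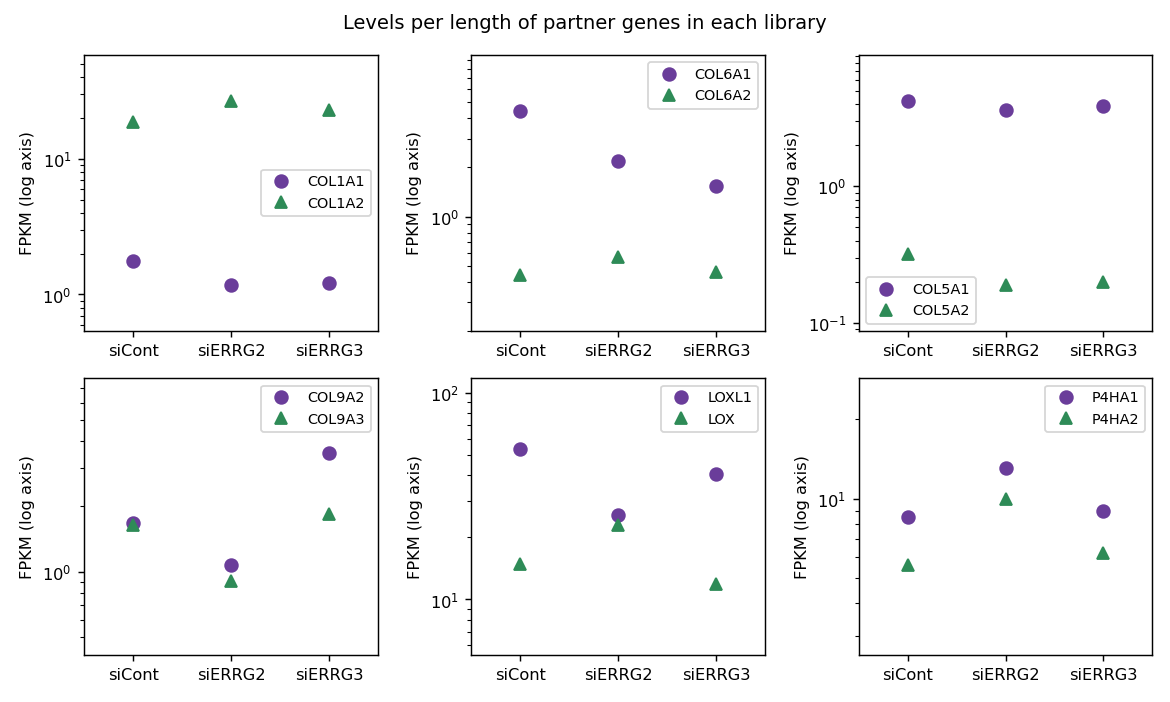
Each of the 6 panels shows the FPKM of 2 partner genes in the 3 libraries on a log axis. The distance between COL6A1 and COL6A2, and between LOXL1 and LOX, was smaller in siERRG2 than in siCont, while COL1A2 stood above COL1A1 in every library.

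COL18A1, a basement membrane chain from whose end endostatin is cleaved, was lower in both knockdown libraries. It had 146 counts with siCont, 112 with siERRG2 and 96 with siERRG3, with log2 fold changes of -0.39 and -0.62 and intervals of 0.588 to 0.977 and 0.494 to 0.842. As deposited, its counts held fractions, and its RefSeq extent overlaps that of SLC19A1, which had 1346, 1453 and 927 counts.

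Type IV collagen, the network of basement membranes, is encoded by 3 pairs of genes, each pair read in opposite directions from a short space between the starts. Between the outer ends of the genes in RefSeq's GRCh38.p14 lie 126 bases for COL4A1 and COL4A2 on chromosome 13, 135 for COL4A4 and COL4A3 on chromosome 2, and 379 for COL4A6 and COL4A5 on chromosome X. All 6 genes were compared, though only COL4A4 had a mean of at least 50 counts, and the others are named here after their values were seen, to complete the pairs. COL4A4 had 159 counts with siCont, 111 with siERRG2 and 105 with siERRG3, and COL4A3 had 16, 6 and 11. Both genes were highest in siCont. COL4A4 had intervals of 0.537 to 0.885 and 0.503 to 0.836, and COL4A3 had 0.119 to 0.997 and 0.284 to 1.55. RHBDD1, whose extent overlaps that of COL4A4, had 868, 977 and 735 counts. COL4A5 had 12 counts with siCont, 30 with siERRG2 and 15 with siERRG3, and COL4A6 had 3, 16 and 9. Both members of this pair were highest in siERRG2, where the intervals were 1.23 to 5.3 and 1.51 to 28.2, while their intervals in siERRG3 included 1. COL4A6 passed the filter through siERRG2 alone, so that its higher value there is a description and no support for the pair. COL4A1 had 12, 5 and 13 counts and COL4A2 had 22, 15 and 11, and all of their intervals included 1. Part of the space between COL4A6 and COL4A5 is shown as an example of such a start region. It is given as the 250 bases before the COL4A5 start, chrX:108439588-108439837 on the plus strand of GRCh38.p14, and holds none of the motifs searched.
COL4A5 upstream: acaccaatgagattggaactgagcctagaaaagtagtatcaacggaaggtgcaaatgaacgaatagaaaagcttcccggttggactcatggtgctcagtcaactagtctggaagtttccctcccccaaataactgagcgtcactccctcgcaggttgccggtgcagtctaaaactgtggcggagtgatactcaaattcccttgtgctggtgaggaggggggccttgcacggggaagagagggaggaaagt

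Among the enzymes, higher genes outnumbered lower ones in siERRG2. In siERRG2, 3 of the 19 enzymes compared (15.8%) lay at least 1.2-fold below siCont and 5 (26.3%) lay above it by as much, against the 19.2% and 16.4% of all genes given above. In siERRG3, 5 (26.3%) were lower and 4 (21.1%) higher, against 25.1% and 23.2%, so that these shares were near the background. With intervals that also excluded 1, 2 enzymes were lower and 4 higher in siERRG2, and 5 were lower and 1 higher in siERRG3, against the 12.8% and 10.2%, and the 19.9% and 17.1%, given for all genes. The median log2 fold change of the enzymes was 0.03 in siERRG2 and -0.07 in siERRG3. In the direct comparison of siERRG3 with siERRG2, 9 of the 19 enzymes were lower (25.3% of all genes) and 5 were higher (26.4% of all genes), while of the 23 chains 9 were lower and 5 higher. With intervals that also excluded 1, 9 enzymes were lower and 4 higher from siERRG2 to siERRG3, and 4 chains were lower and 3 higher, where 20.4% of all genes were lower and 19.6% higher. At a mean of at least 50 counts, where 25.0% and 22.1% of genes were lower and higher, 9 of the 17 enzymes were lower and 3 higher.

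The alpha subunits of prolyl 4-hydroxylase were higher in siERRG2 and near siCont in siERRG3. P4HA1, at 72959140 to 73168095 of chromosome 10, had 484 counts with siCont, 746 with siERRG2 and 519 with siERRG3. P4HA2, at 132130578 to 132369648 of chromosome 5, had 299, 520 and 344. These genes encode the catalytic subunit, which pairs with the disulphide isomerase P4HB. Their log2 fold changes in siERRG2 were 0.61 (interval 1.36 to 1.71) and 0.78 (1.49 to 1.99), and in siERRG3 the intervals of 0.93 to 1.2 and 0.966 to 1.33 included 1. From siERRG2 to siERRG3 both were lower, by -0.53 and -0.60 on the log2 scale. P4HB had 11312, 11521 and 10204 counts and remained within 1.2-fold of siCont. The 250 bases before the P4HA1 start in RefSeq's GRCh38.p14, chr10:73096867-73097116 on the minus strand, are shown because the gene was higher in siERRG2 and the window held a motif match. The capitals mark ACGTG, one form of the core letters bound by hypoxia-inducible factors, here as CACGT on the other strand and starting 86 bases before the P4HA1 start. This motif was added after the values were seen.
P4HA1 upstream: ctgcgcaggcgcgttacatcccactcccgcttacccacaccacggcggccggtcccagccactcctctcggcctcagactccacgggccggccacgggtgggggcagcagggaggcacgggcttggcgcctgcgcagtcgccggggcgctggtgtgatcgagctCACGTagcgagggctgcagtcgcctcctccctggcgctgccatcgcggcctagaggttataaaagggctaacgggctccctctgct

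In the prolyl 3-hydroxylase family with CRTAP, the genes compared stayed near siCont, except that P3H4 was called higher. P3H1 modifies single prolines of fibrillar chains and assists folding, and CRTAP is its helper subunit. CRTAP had 3857 counts with siCont, 4149 with siERRG2 and 3339 with siERRG3, P3H1 had 691, 655 and 747, and P3H3 had 353, 410 and 311. All 3 stayed within 1.2-fold of siCont in both libraries. CRTAP nevertheless lay beyond counting error, just above siCont in siERRG2 (interval 1.02 to 1.11) and below it in siERRG3 (0.812 to 0.892). P3H4, which has no known catalytic activity of its own, had 65, 83 and 88 counts and was called higher in both, although its intervals, 0.901 to 1.77 and 0.955 to 1.86, included 1.

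Lysyl hydroxylases prepare lysines for cross-linking and for sugars, and PLOD1 had the highest FPKM of the members in each library. It had 66.7 FPKM in siCont, 64.6 in siERRG2 and 52.6 in siERRG3, from 4039, 3923 and 3214 counts. PLOD3 had 1739, 1804 and 1453 counts. Both stood near siCont in siERRG2 and lower in siERRG3, where the log2 fold changes were -0.35 (interval 0.747 to 0.82) and -0.28 (0.766 to 0.881). PLOD2, which hydroxylates the telopeptides of fibrillar collagens, had 1180, 1222 and 1145 counts, and its intervals included 1 in both. The galactosyltransferase COLGALT1, which places the first sugar on hydroxylysine, had 3128, 3136 and 2873 counts and remained within 1.2-fold. Its relative COLGALT2 had 508, 666 and 509 counts and was higher in siERRG2, with an interval of 1.15 to 1.46 there and of 0.87 to 1.12 in siERRG3. From siERRG2 to siERRG3 the interval of COLGALT2 was 0.676 to 0.854.

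SERPINH1, the collagen-specific chaperone of the endoplasmic reticulum, was highest in siERRG3. It had 573 counts with siCont, 623 with siERRG2 and 816 with siERRG3, with a log2 fold change of 0.48 in siERRG3 (interval 1.26 to 1.56) and an interval of 0.958 to 1.21 in siERRG2. BMP1, the C-proteinase, had 470, 437 and 362 counts and was lower in siERRG3 by a log2 fold change of -0.40 (interval 0.659 to 0.87). PCOLCE, the glycoprotein that speeds the cut made by BMP1, had 103, 73 and 111 counts. It was lowest in siERRG2, with a log2 fold change of -0.50 (interval 0.512 to 0.955), and its interval of 0.803 to 1.4 in siERRG3 included 1.

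The lysyl oxidases LOXL1 and LOX differed in opposite directions in siERRG2. LOXL1, which cross-links elastin and collagen, is gene 4016 at 73926458 to 73952141 of chromosome 15, and had 2178 counts with siCont, 1108 with siERRG2 and 1750 with siERRG3. LOX, gene 4015 at 122063020 to 122078564 of chromosome 5, had 1528, 2312 and 1255. LOXL1 was thus lowest and LOX highest in siERRG2. The intervals of LOXL1 were 0.467 to 0.541 in siERRG2 and 0.741 to 0.842 in siERRG3. LOX had a log2 fold change of 0.58 in siERRG2 (interval 1.4 to 1.6) and of -0.31 in siERRG3 (0.749 to 0.871). Per length, LOXL1 stood 3.60-fold above LOX in siCont, 1.13-fold in siERRG2 and 3.42-fold in siERRG3. As deposited, LOX counts held fractions, and its RefSeq extent overlaps that of SRFBP1, which had 316, 399 and 424 counts. LOXL3 had 170, 175 and 209 counts and LOXL2 and LOXL4, outside the rule of 50 counts, had between 12 and 35, and their intervals against siCont included 1 in both libraries. LOXL3 overlaps HTRA2, which had 1252, 1281 and 678 counts, and DOK1, which had 302, 301 and 420.

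ERRγ binds DNA at sites that hold AGGTCA with a short extension before it, so the members' upstream sequences in RefSeq's GRCh38.p14 were searched on both strands for AAGGTCA and for TCAAGGTCA, which contains it. The window was the 250 bases before the start listed for each gene, and 45 of the 61 members were matched. For 37 of the 45 that start was the outer end of the gene's RefSeq extent, and for 8, P4HA2 and COL4A4 among them, it lay inside it. COL6A1, COL1A1 and COL1A2 were among the members without an upstream sequence here, so they were not searched. COL7A1 and PCOLCE, 4.44% of the 45, held AAGGTCA, where 3.50% of all 27305 genes with such a sequence did. The longer motif was in 0 of the 45 and in 0.315% of all genes, and ACGTG was in 8 of the 45 (17.8%) and in 18.6% of all genes. The members' shares were near those of all genes, and a match is a description of letters, not of binding. The window of PCOLCE, chr7:100602113-100602362 on the plus strand, is shown for its match, in capitals, which starts 127 bases before the gene start. That of LOXL1, chr15:73926212-73926461 on the plus strand, is shown because LOXL1 was lower in both knockdown libraries, and holds no match.
PCOLCE upstream: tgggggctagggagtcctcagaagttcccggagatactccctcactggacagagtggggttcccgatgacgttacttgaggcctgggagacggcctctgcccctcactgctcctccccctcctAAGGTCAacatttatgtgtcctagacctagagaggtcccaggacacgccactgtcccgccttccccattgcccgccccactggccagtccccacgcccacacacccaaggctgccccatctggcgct
LOXL1 upstream: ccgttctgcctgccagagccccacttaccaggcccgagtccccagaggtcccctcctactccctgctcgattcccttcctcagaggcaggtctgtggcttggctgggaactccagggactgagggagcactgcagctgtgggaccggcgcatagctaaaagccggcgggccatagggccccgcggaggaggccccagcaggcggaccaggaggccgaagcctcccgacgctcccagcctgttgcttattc

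Other genes of the collagen pathway were taken from 6 lists of maturation partners, proteinases and helpers, secretion genes, receptors, degrading enzymes and collagen-binding proteins. Of 62 genes in the table, 48 were compared. In siERRG2, 13 were lower and 8 higher (19.2% and 16.4% of all genes), and in siERRG3, 16 were lower and 8 higher (25.1% and 23.2%). With intervals that also excluded 1, 5 were lower and 6 higher in siERRG2, and 11 lower and 8 higher in siERRG3. By that criterion 12.8% of all genes were lower and 10.2% higher in siERRG2, and 19.9% were lower and 17.1% higher in siERRG3. Among the 9 maturation partners compared, 2 were lower and 0 higher in siERRG2, and 3 were lower and 0 higher in siERRG3. CALR, the calcium-binding lectin chaperone calreticulin, had 25734 counts with siCont, 12749 with siERRG2 and 21686 with siERRG3, and was lower in both, most in siERRG2, and the intervals were 0.479 to 0.5 and 0.814 to 0.844. HSPA5 (BiP), the general chaperone of the compartment, had 15312, 11421 and 12181 counts and was lower in both. SPARC, which binds collagen and assists its deposition, had 1390, 1222 and 874 counts and was lower in siERRG3, with a log2 fold change of -0.69 (interval 0.567 to 0.673). PPIB, the cyclophilin that works with CRTAP and P3H1, had 5763, 5723 and 5258 counts and stayed within 1.2-fold of siCont, as did PDIA3 (9644, 9443 and 8426), TMEM38B (930, 957 and 1000) and FKBP14 (613, 546 and 637).

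Of 14 genes that carry bulky procollagen out of the endoplasmic reticulum, 0 were lower and 1 was higher in siERRG2, and 1 was lower and 3 were higher in siERRG3. Of all genes, 19.2% were lower and 16.4% higher in siERRG2, and 25.1% were lower and 23.2% higher in siERRG3. MIA3 (TANGO1), which loads procollagen into carriers, had 1018, 1013 and 726 counts and was the lower gene in siERRG3, with an interval of 0.637 to 0.772. Its partner MIA2 (cTAGE5) had 558, 627 and 828 counts and was higher there, with an interval of 1.31 to 1.63. The GTPase SAR1A had 1614, 1828 and 2206 counts and TRAPPC2 had 596, 660 and 748, and both were higher in siERRG3. SEC24D, a coat subunit needed for collagen export, had 796, 989 and 774 counts and was the higher gene in siERRG2. The other 9, SEC23A, SEC23B, SEC24C, SAR1B, KLHL12, CUL3, TFG, PEF1 and PDCD6, had between 624 and 3098 counts and stayed within 1.2-fold of siCont in both libraries. Of 5 proteinases and helpers, 3 were lower and 1 higher in siERRG2, and 3 lower and 0 higher in siERRG3, against the same shares of all genes. With intervals that also excluded 1, 1 was lower and 0 higher in each library. By that criterion 12.8% of all genes were lower and 10.2% higher in siERRG2, and 19.9% were lower and 17.1% higher in siERRG3. In siERRG2 the lower gene was FURIN, which activates proproteins including BMP1, with 731, 315 and 756 counts and an interval of 0.372 to 0.487. FURIN was near siCont in siERRG3. The lower gene beyond counting error in siERRG3 was PCOLCE2, with 313, 295 and 253 counts and an interval of 0.671 to 0.941. PCOLCE2 is named after its values were seen.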

How the data were processed

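RNA of H128 cells was measured 48 h after transfection in 1 library per condition. The authors deposited estimated counts (expected counts) per gene, not normalized, and a value per transcript length and library size that behaves as FPKM, whose unit the table does not name. The methods name single-end reads and an alignment by BWA and Bowtie 2 against GRCh37/hg19, the labels describe paired-end preparation with a strand-marking kit, and the submitters' processing notes name TopHat2, HTSeq and DESeq2, while the table's coordinates are those of GRCh38. The notes give these tools no role, and the strand setting of the counting is not given in the sources used here. Between 54.0% and 54.9% of counts per library were whole, and 16 members had counts that were not. Columns with the authors' log2 ratios, Poisson p-values and adjusted values were not used.

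Counts were rounded, genes that reached 10 counts in any library were kept, and libraries were scaled by TMM in edgeR 4.0.16 under R 4.3.3. Intervals were computed with SciPy 1.17.1. Computations were tested on simulated data. Alternatives were DESeq2 1.42.0 size factors, total counts, FPKM with a pseudocount of 0.1, no filter, a prior count of 0.5, a floor of 50 on the mean count, and a 1.5-fold threshold. Members with a mean of at least 50 counts were named with their values, and of the other pathway genes those with a mean of at least 500 counts, or a 2-fold change against siCont and a mean of at least 50. Members and lists were chosen with earlier results of these data known. Overlaps and strands were taken from RefSeq, since the table's strand differed from it in 15 of 45 members.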

Additional observations from a re-analysis of the deposited data

Results flagged for a closer look

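Among the members, 2 stood beyond 1.2-fold and beyond counting error in opposite directions in the knockdown libraries. COL9A2 was lower than siCont in siERRG2 and higher in siERRG3, with a log2 fold change of 1.69 between siERRG3 and siERRG2 and an interval of 2.46 to 4.44. LOX was higher than siCont in siERRG2 and lower in siERRG3, with a log2 fold change of -0.89 between siERRG3 and siERRG2 and an interval of 0.504 to 0.579. With 1 library per condition these differences were not tested.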

How the results depend on the processing

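The choice of genes and of the fold threshold moved the counts of chains and enzymes most. Without a filter, 18 chains were lower and 8 higher in siERRG2 (22.7% and 19.8% of all genes in that setting), 15 lower and 10 higher in siERRG3 (26.6% and 26.1%), and 13 lower and 12 higher from siERRG2 to siERRG3 (26.8% and 28.9%). With a mean of at least 50 counts, fewer genes were compared, and 7 chains were lower and 1 higher in siERRG2, 6 lower and 2 higher in siERRG3, and 3 lower and 3 higher from siERRG2 to siERRG3. At 1.5-fold, 6 chains were lower and 2 higher in siERRG2 (6.97% and 4.29% of all genes), 8 lower and 2 higher in siERRG3 (9.95% and 8.47%), and 4 lower and 4 higher from siERRG2 to siERRG3. At that threshold 2 enzymes were lower and 2 higher in siERRG2, so that the higher enzymes no longer outnumbered the lower ones. In siERRG3, 0 enzymes were lower and 1 higher, and from siERRG2 to siERRG3, 2 were lower and 3 higher. Of all genes, 10% were lower and 10.7% higher from siERRG2 to siERRG3 at this threshold. The median log2 fold change of the chains in siERRG2 and siERRG3, -0.24 and -0.20 above, was -0.11 and -0.017 without a filter and -0.52 and -0.46 at a mean of at least 50 counts. With the FPKM values, 7 chains were lower and 3 higher from siERRG2 to siERRG3, beside 9 and 5 with the TMM-scaled counts. The shares of all genes with the FPKM values were not computed, and the cause was not tested. Of 336 alternative values of the members named with counts, 2 crossed the 1.2-fold line, those of COL27A1 and LOXL3 from siERRG2 to siERRG3 with FPKM values. No paired analysis was possible because each condition had 1 library. At this depth, chains with under 50 counts had wide intervals, and culture variation is unknown.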

Other observations

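Of the 8 collagen receptor genes compared, 2 were lower and 4 higher than siCont in siERRG2, and 4 were lower and 2 higher in siERRG3, where 19.2% and 16.4%, and 25.1% and 23.2%, of all genes were lower and higher. With intervals that also excluded 1, 1 was lower and 3 higher in siERRG2, and 3 were lower and 2 higher in siERRG3. By that criterion 12.8% of all genes were lower and 10.2% higher in siERRG2, and 19.9% were lower and 17.1% higher in siERRG3. ITGB1, the beta 1 integrin subunit, had 7527 counts with siCont, 11108 with siERRG2 and 5453 with siERRG3, with intervals of 1.42 to 1.5 and 0.688 to 0.738. The discoidin domain receptor DDR1, a receptor tyrosine kinase for collagen, had 1356, 1726 and 726 counts, and DDR2 had 2232, 2796 and 1942. ITGB1 and DDR1 were thus called higher in siERRG2 and lower in siERRG3, and DDR2 was called higher in siERRG2 and stayed within 1.2-fold in siERRG3. The endocytic collagen receptor MRC2 had 1054, 712 and 845 counts and was lower in both. The integrin partners of ITGB1 for collagen, ITGA1, ITGA2, ITGA10 and ITGA11, had at most 20 counts in any library.

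Among the 6 degrading enzymes compared, 3 were lower and 1 higher in each knockdown library, against the same 1.2-fold shares of all genes. With intervals that also excluded 1, 0 were lower and 1 higher in siERRG2, and 1 was lower and 1 higher in siERRG3. By that criterion 12.8% of all genes were lower and 10.2% higher in siERRG2, and 19.9% were lower and 17.1% higher in siERRG3. The lower genes were MMP9 (17, 9 and 11 counts) and CTSK (30, 17 and 20) in both libraries, MMP14 (35, 26 and 30) in siERRG2 and FAP in siERRG3, and FAP was the one beyond counting error. PEPD, the dipeptidase that frees proline from degraded collagen, had 535, 673 and 504 counts and was the higher one in siERRG2. MMP2, a gelatinase, had 210, 222 and 344 counts and was the higher one in siERRG3, with an interval of 1.35 to 1.92; MMP2 and the lower genes are named after their values were seen. Of the 6 collagen-binding matrix genes compared, 3 were lower and 1 higher in siERRG2, and 2 lower and 2 higher in siERRG3, against the same 1.2-fold shares of all genes. With intervals that also excluded 1, 1 was lower and 1 higher in siERRG2, and 2 were lower and 2 higher in siERRG3. The shares of all genes by that criterion are those just given. The higher genes in siERRG3 were THBS1, with 5, 5 and 18 counts, and TNXB, with 8, 4 and 27, named after their values were seen, and both passed the filter through siERRG3 alone. BGN, the small proteoglycan biglycan, had 1304, 745 and 1014 counts and was lower in both (intervals 0.515 to 0.618 and 0.704 to 0.831). The other lower genes in siERRG2 were TNXB and MATN2, and both of their intervals there included 1. MATN2 had 9, 6 and 10 counts, is also named after its values were seen, and likewise passed the filter through siERRG3 alone. LUM, the proteoglycan lumican, was highest in siERRG2 with 183 counts, against 83 in siCont and 58 in siERRG3.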
